A study of Rattus norvegicus with 32 samples.

Results

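Collagen genes were taken as every row of the deposited count table whose gene name reads Col, a number, the letter a and a number, which gave 42 of 32883 rows. Of these, 40 passed the filter on low counts and were tested among 15439 genes. Col17a1, with 189 counts over all libraries, and Col10a1, with 142, did not pass and are described by level alone. By class there were 10 fibrillar collagens, 6 basement membrane collagens of type IV, 2 multiplexins, 5 beaded filament collagens of type VI, 9 fibril-associated collagens, 4 transmembrane collagens, 3 short-chain network collagens and 3 others. Col1a2, Col6a3 and Col21a1 were not analysed here.

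The libraries came from RNA of 1 hippocampus per rat pup, in 4 groups of wild-type pups set by maternal diet and treatment. IS control (iron sufficient, no insulin) had 8 libraries, ID control (iron deficient, no insulin) 9, IS insulin 7 and ID insulin 8. Iron deficiency was produced with a purified diet of 3 to 6 ppm iron, fed to the dams from gestational day 3 to postnatal day 7, and intranasal insulin was given to the pups of the insulin groups from postnatal day 8 to day 21. The labels state neither strain nor sex, nor from how many litters the pups came, so the p-values cover only differences between single pups. Collection is labelled as day 7 or day 21 without a choice per pup. The insulin groups must be day 21, and if a control group was collected on day 7, age and insulin cannot be told apart in it. Mbp, the myelin basic protein gene, averaged 8191 ± 884 CPM (counts over the scaled library total; SD, n = 8) in IS control, 7409 ± 906 (n = 9) in ID control, 8644 ± 802 (n = 7) in IS insulin and 8810 ± 2190 (n = 8) in ID insulin, and was called in none of the 5 pairwise comparisons.

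Collagens are secreted proteins in which 3 chains wind into a triple helix. The helix is made stable by hydroxylation of proline, and lysine is hydroxylated as well, both by enzymes that need iron. The chains then assemble into fibrils, sheets or filaments outside the cell. In brain, fibrillar collagens belong mainly to the meninges and the sheath of larger vessels, type IV and multiplexin collagens to the basement membranes of vessels and the pial surface, and little fibrillar collagen lies in the neural tissue itself. A few collagens, such as the transmembrane Col25a1, are made by neurons.

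Total counts per library were 19619345 to 28062630, and collagens took 0.11 to 0.149% of them in ID control, 0.0952 to 0.134% in ID insulin, 0.0905 to 0.119% in IS control and 0.08 to 0.11% in IS insulin. CPM values are counts divided by TMM-scaled library totals and are not divided by gene length, so a gene is compared between groups and not with other genes. ID insulin replicate 3 stood apart from the other libraries of its group, with a chi-square per gene of 38.5 to 85.1 against each of them, where all other pairs within a group reached at most 30.4. The first number in the sample titles is different in each group and takes 2 values, 69 (5 libraries) and 70 (4 libraries), in ID control. In every comparison between groups, this number and the group cannot be told apart. Differences between title numbers can be seen only within ID control. The hippocampal neuron markers summed to 727 to 1209 CPM over all libraries, and none of the 12 was at 0 throughout a group.

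Sequence upstream of the start is shown for some of the genes named in the results below. It is from the RefSeq promoter table (GRCr8, 33 of the 42 collagens matched by symbol). Col11a1 rose and Col18a1 fell in ID insulin, Col8a1 and Col8a2 varied together between libraries, and Col4a1 and Col4a2 are divergent neighbours whose starts are 76 bases apart. Capitals mark, on either strand, the TATA box letters TATAAA, the box letters CCAAT and the GC box letters GGGCGG, and adjoining capitals in Col8a2 are overlapping copies of GGGCGG.
Col11a1, chr2:204508986-204509135, plus strand: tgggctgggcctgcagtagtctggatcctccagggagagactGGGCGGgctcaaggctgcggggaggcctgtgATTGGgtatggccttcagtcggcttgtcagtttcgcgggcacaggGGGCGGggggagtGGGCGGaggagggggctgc
Col18a1, chr20:11473495-11473644, plus strand: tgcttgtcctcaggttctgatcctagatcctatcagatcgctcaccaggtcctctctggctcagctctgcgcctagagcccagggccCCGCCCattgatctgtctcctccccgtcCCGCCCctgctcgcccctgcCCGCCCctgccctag
Col8a1, chr11:56246632-56246781, plus strand: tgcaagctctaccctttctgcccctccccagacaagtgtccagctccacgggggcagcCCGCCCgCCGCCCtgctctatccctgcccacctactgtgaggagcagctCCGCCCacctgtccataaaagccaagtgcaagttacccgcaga
Col8a2, chr5:143870619-143870768, plus strand: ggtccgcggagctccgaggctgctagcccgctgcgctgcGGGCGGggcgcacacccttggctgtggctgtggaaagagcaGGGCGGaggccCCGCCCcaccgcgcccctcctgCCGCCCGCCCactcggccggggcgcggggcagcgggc
Between the starts of Col4a2 and Col4a1, chr16:84885521-84885596, plus strand: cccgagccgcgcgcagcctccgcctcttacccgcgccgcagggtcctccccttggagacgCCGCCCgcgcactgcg
In the 250 bases before the start, GGGCGG was found in 19 of 33 collagen promoters (57.6%) and in 30.5% of all 33469 promoters in the table. CCAAT was found in 10 of 33 (30.3%) against 34% of all, and TATAAA in 3 of 33 (9.09%) against 12.9%. None of the printed stretches holds TATAAA. A match describes these letters and is not a binding site.

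Among iron-deficient pups, insulin went with a change in 6 collagens: Col11a1 and Col2a1 rose, and Col1a1, Col3a1, Col18a1 and Col6a1 fell. These were 6 of the 40 tested collagens, 2 higher and 4 lower, where 3.82% of all tested genes were called in the same comparison, 1.96% higher and 1.86% lower (edgeR's quasi-likelihood test, Benjamini-Hochberg adjusted p under 0.05 over all genes). The median log2 fold change was -0.02 over the 40 collagens and 0.004 over all genes, with 19 collagens and 51.2% of all genes above 0. No collagen was called between ID control and IS control, where 0.291% of all genes were, nor between IS insulin and IS control, where 0.123% were. Between ID insulin and IS insulin 1 collagen, Col11a1, was called higher (2.45% of all genes called, 1.32% higher), and the same held for ID insulin against IS control (3.35%, with 2.07% higher). The diet by insulin interaction gave 0 collagen calls (0.939% of all genes). At an unadjusted p under 0.05 stood 16 of 40 collagens (40%) in ID control against IS control, where 11.9% of all genes did, and 12 (30%) in ID insulin against ID control, where 19.5% did. The corresponding values were 9 (22.5%, all genes 20.1%) in ID insulin against IS insulin, 7 (17.5%, all genes 20.3%) in ID insulin against IS control, 4 (10%, all genes 16.3%) in IS insulin against IS control and 6 (15%, all genes 17.1%) in the interaction, close to or below the share of all genes. DESeq2 and limma voom each called Col3a1 higher in ID control than in IS control and Col11a1 in the interaction, and neither called a collagen between IS insulin and IS control. The groups overlapped for every collagen in all 5 pairwise comparisons, where 0.142% of all genes did not overlap in ID control against IS control, 0.201% in ID insulin against ID control, 0.369% in IS insulin against IS control, 0.44% in ID insulin against IS insulin and 0.35% in ID insulin against IS control. The comparisons share control groups, so their values are not independent of each other.

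**Figure D1:**
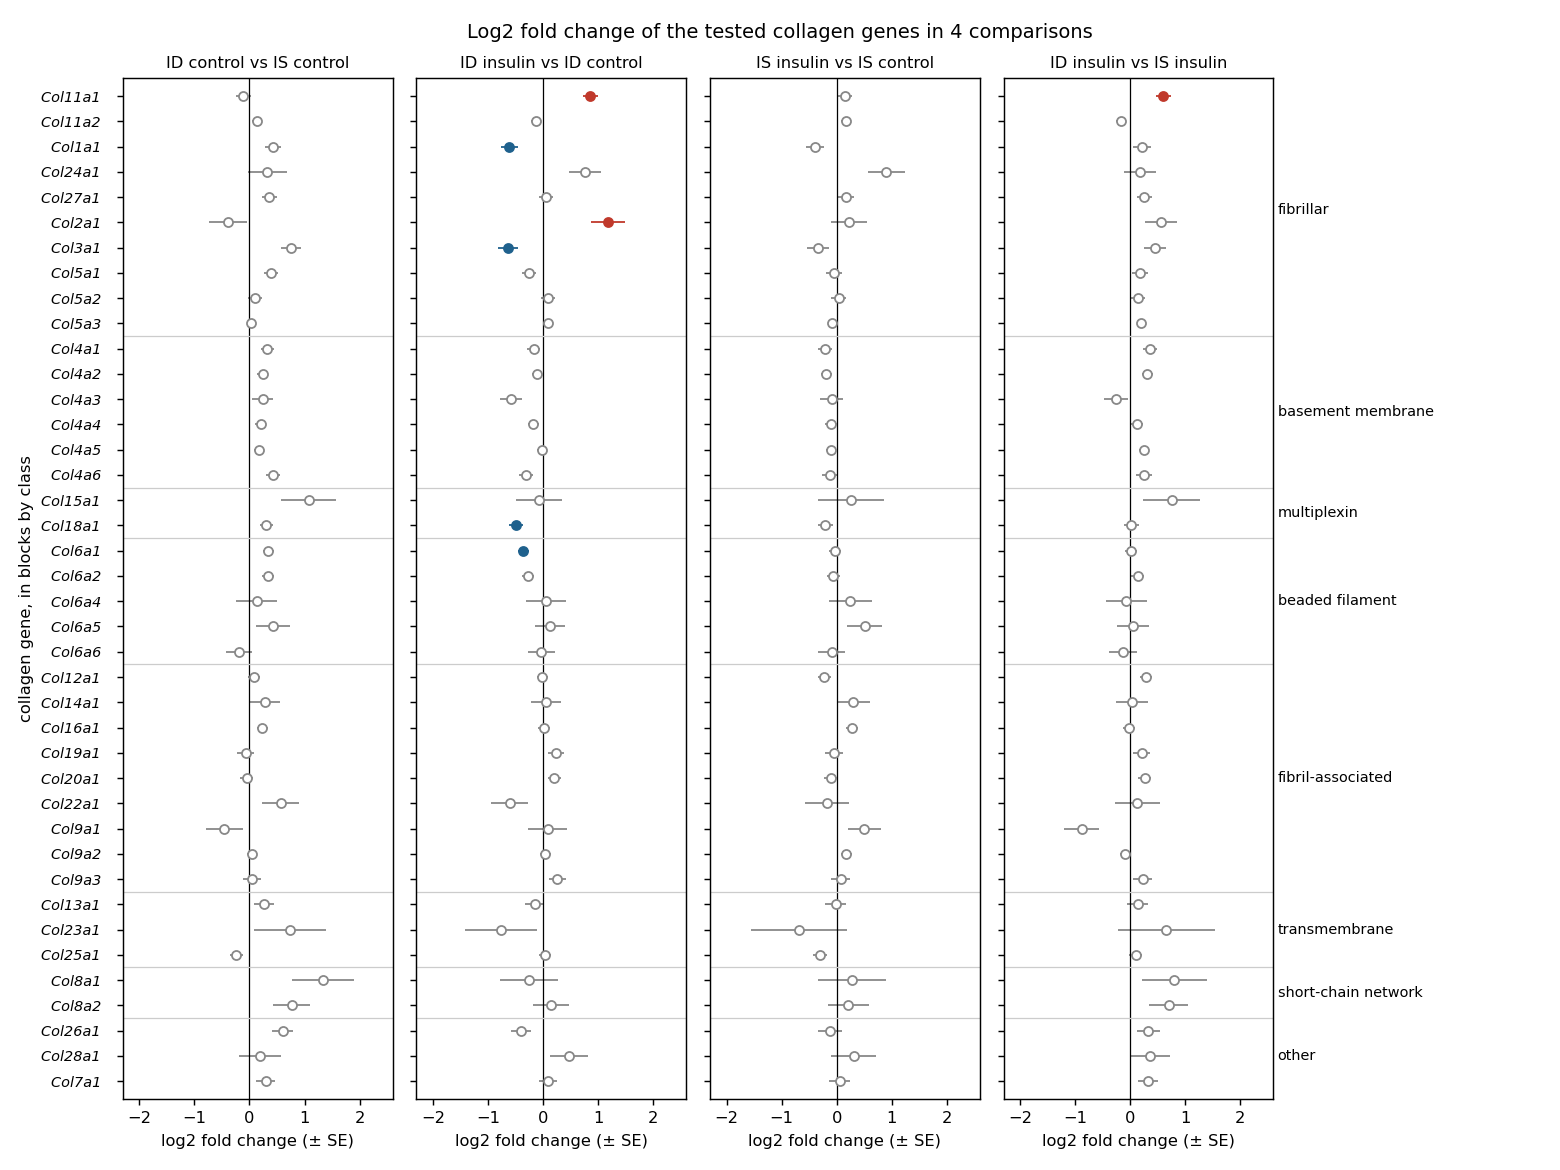
Log2 fold change (x axis) with its standard error for each of the 40 tested collagens (y axis, in blocks by class) in 4 comparisons. Filled points are called (red higher, blue lower): 6 in ID insulin against ID control and Col11a1 in ID insulin against IS insulin, with none in the other 2 panels.

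Without a call, most collagens lay on the higher side in iron-deficient pups. Of 40 collagens, 33 (82.5%) had a log2 fold change above 0 in ID control against IS control, where 52.1% of all genes did, with a median of 0.25 against 0.005 for all genes. In ID insulin against IS insulin, 33 of 40 were again above 0 (49.8% of all genes), with a median of 0.20. In IS insulin against IS control 18 of 40 were (53.5% of all genes), with a median of -0.04. The collagens are not independent of each other, since several varied together from library to library, as described below.

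Among the fibrillar collagens, Col11a1, a minor fibrillar chain that takes part in nucleating fibrils, was high in ID insulin. Its lowest, median and highest CPM were 10.7, 12.2 and 14.8 in IS control, 8.14, 11.4 and 14.9 in ID control, 10.1, 12.2 and 17.6 in IS insulin, and 13.6, 19.5 and 27.8 in ID insulin. In ID insulin 7 of 8 libraries lay above every library of the other 3 groups, and replicate 1, at 13.6 CPM, lay within their range. The mean was 20.6 ± 4.49 CPM (SD, n = 8) in ID insulin and 11.3 ± 2.72 (n = 9) in ID control, a log2 fold change of 0.86 (SE 0.13, adjusted p = 0.000487). The increase held with each of 32 libraries left out in turn and in 12 of 12 other settings, with log2 fold changes between 0.72 and 0.95 in the latter. It was 0.95 against the ID control libraries of title number 69 and 0.76 against those of 70. Col11a1 was also higher in ID insulin than in IS insulin (log2 fold change 0.60, SE 0.14, adjusted p = 0.0184) and than in IS control (0.74, SE 0.13, adjusted p = 0.00228). The first of these calls was lost in 3 of 10 other settings (the compared groups alone, the replicate block and marker covariates, adjusted p up to 0.243), and the second with marker covariates (adjusted p = 0.131), while both held with each library left out. IS insulin (13.6 ± 2.71 CPM, n = 7) and IS control (12.3 ± 1.29, n = 8) differed by 0.15 (SE 0.14, adjusted p = 0.649). The difference between the insulin responses of the 2 diets was 0.72 (SE 0.19) and was not called, with an adjusted p of 0.0579.

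Col2a1, the major fibrillar collagen of cartilage, rose on a base of few reads. Its lowest, median and highest CPM were 0.641, 0.803 and 1.34 in IS control, 0.376, 0.674 and 1.07 in ID control, 0.277, 0.868 and 1.55 in IS insulin, and 0.773, 1.07 and 3.55 in ID insulin. These rest on 9 to 23 counts per library in ID control and 18 to 91 in ID insulin. In ID insulin 4 of 8 libraries lay above all of ID control, and replicate 8 stood far above the other 7. The log2 fold change from ID control to ID insulin was 1.18 (SE 0.30, adjusted p = 0.0254). Without ID insulin replicate 8 it was 0.85 with an adjusted p of 0.073, and without ID control replicate 5 it was 1.13 with an adjusted p of 0.0506, so that either library ends the call. It was 1.01 (adjusted p = 0.195) against title number 69 and 1.40 (adjusted p = 0.096) against 70.

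Col1a1 and Col3a1, the chains of the main fibrils of meninges and vessel sheaths, were highest in ID control and fell in ID insulin. Col1a1 measured 82.9, 92.5 and 161.7 CPM (lowest, median, highest) in IS control, 98.0, 138.4 and 221.5 in ID control, 66.7, 68.9 and 109.6 in IS insulin, and 69.9, 85.3 and 124.4 in ID insulin. In ID insulin 5 of 8 libraries lay below every ID control library. The means were 93.4 ± 18.8 CPM (n = 8) in ID insulin and 142.8 ± 38.6 (n = 9) in ID control, a log2 fold change of -0.61 (SE 0.15, adjusted p = 0.0205).

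Col3a1 measured 54.5, 68.2 and 122.1 CPM in IS control, 86.2, 116 and 246 in ID control, 48.0, 58.8 and 82.7 in IS insulin, and 53.1, 83.6 and 120.1 in ID insulin. ID control replicate 5, at 246 CPM, was far above the others of its group, and 4 of 8 ID insulin libraries lay below all of ID control. The log2 fold change from ID control to ID insulin was -0.63 (SE 0.18, adjusted p = 0.0445). ID control replicate 5 was also the highest of its group for Col1a1. Without it the changes were -0.51 for Col1a1 (adjusted p = 0.0519) and -0.47 for Col3a1 (adjusted p = 0.121). The Col1a1 call held when each of the other 31 libraries was left out in turn. It held in 9 of 12 other settings and was lost with the replicate block, title number 70 alone and marker covariates. The Col3a1 call was lost when any 1 of 12 of the 32 libraries was left out (ID control replicates 2, 3, 5, 6, 8 and 9 and ID insulin replicates 2 to 7, log2 fold changes of -0.72 to -0.47 over all 32) and in 7 of 12 other settings. Against title number 69 the changes were -0.73 for Col1a1 (adjusted p = 0.038) and -0.80 for Col3a1 (adjusted p = 0.0663), and against 70 they were -0.44 (adjusted p = 0.193) and -0.40 (adjusted p = 0.338).

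The same 2 genes had the opposite sign with diet. Col3a1 had a log2 fold change of 0.75 in ID control against IS control (SE 0.18, adjusted p = 0.0702), with 9 of 9 ID control libraries above the IS control median and 4 above its highest. The corresponding value for Col1a1 was 0.43 (SE 0.15, adjusted p = 0.226). In IS insulin against IS control the values were -0.34 for Col3a1 (SE 0.20, adjusted p = 0.399) and -0.39 for Col1a1 (SE 0.16, adjusted p = 0.212). The difference in insulin response between the diets was -0.29 (SE 0.27) for Col3a1 and -0.22 (SE 0.22) for Col1a1, and was called for neither. The log2 ratio of Col1a1 to Col3a1 averaged 0.13 ± 0.12 in ID control and 0.14 ± 0.16 in ID insulin, below 0.45 ± 0.19 in IS control and 0.37 ± 0.23 in IS insulin, a difference that was not tested.

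The other 6 fibrillar collagens were not called in any comparison by the main test. Col24a1, a minor fibrillar chain, had the lowest adjusted p of them, 0.0516 in ID insulin against IS control (log2 fold change 1.08, SE 0.32), at group means of 0.640 ± 0.251 CPM in IS control and 0.821 ± 0.246 in ID control, then 1.25 ± 0.588 in IS insulin and 1.40 ± 0.814 in ID insulin. Its values in both insulin groups were the more spread ones. In ID insulin against IS control, Col24a1 was called higher by DESeq2, limma voom and edgeR's earlier quasi-likelihood method. The same held with the replicate block and without ID insulin replicates 3 and 5, and DESeq2 also called Col27a1 higher. Col5a1, a chain that controls fibril width, averaged 21.7 ± 4.04 CPM in ID control and 16.6 ± 2.96 in IS control, while Col5a2 (32.2 ± 5.10 and 30.1 ± 5.15), Col5a3 (57.5 ± 5.31 and 56.7 ± 3.67) and Col11a2 (65.5 ± 6.66 and 59.9 ± 6.77) differed by less than their SD between those groups. Col27a1 averaged 17.5 ± 4.14 in ID control and 13.7 ± 2.18 in IS control.

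**Figure D2:**
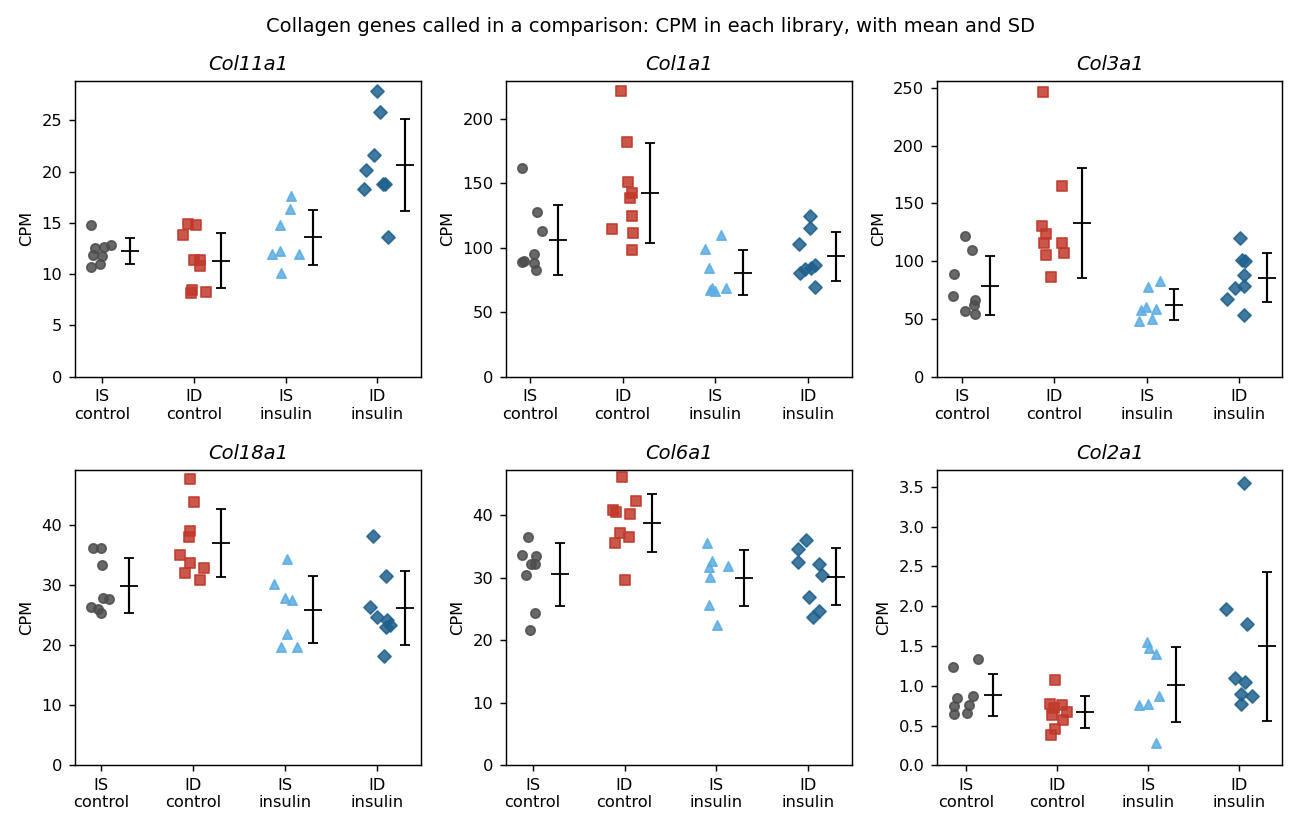
CPM (y axis, from 0) of the 6 collagens called in a comparison, in every library of the 4 groups, with the group mean and SD as a bar at the right of each column of points. Col11a1 is high in 7 of 8 ID insulin libraries, and Col1a1, Col3a1, Col18a1 and Col6a1 are highest in ID control.

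Type IV collagens make the sheet of every basement membrane, Col4a1 and Col4a2 forming the chain mixture found in all vessels, and Col4a3 to Col4a6 mixtures with narrower sites. Each of the 6 had a log2 fold change above 0 in ID control against IS control (0.18 to 0.43) and below 0 in ID insulin against ID control and in IS insulin against IS control, and none was called in a comparison. Col4a1 measured 100.8, 145.5 and 153.2 CPM (lowest, median, highest) in IS control, 146.4, 170.1 and 195.3 in ID control, 88.0, 126.4 and 133.3 in IS insulin, and 85.8, 159.1 and 210.1 in ID insulin. In ID control 8 of 9 libraries lay above all of IS control, and the log2 fold change was 0.32 (SE 0.12, adjusted p = 0.241). ID insulin spread most widely, and 6 of its 8 libraries lay above all of IS insulin (log2 fold change 0.36, SE 0.13, adjusted p = 0.0966).

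Col4a2 had its highest mean in ID control as well, and measured 92.2, 107.8 and 116.3 CPM in IS control, 102.5, 125.5 and 145.5 in ID control, 75.0, 95.0 and 106.5 in IS insulin, and 70.2, 126.1 and 147.8 in ID insulin. Its log2 fold change in ID insulin against IS insulin was 0.31 (SE 0.10, adjusted p = 0.0815). Without ID insulin replicates 3 and 5, both genes were called higher in ID insulin than in IS insulin. The 2 genes moved together over libraries after group means were removed (Pearson r = 0.919, Spearman rho = 0.837, n = 32, permutation within groups, adjusted p = 2e-05 over 8 pairs, the smallest that 100000 permutations can give after adjustment, and r = 0.849 without the 2 farthest libraries). Their log2 ratio averaged 0.46 ± 0.04 in ID control and 0.36 ± 0.11 in IS control. It was 0.35 ± 0.1 in IS insulin and 0.39 ± 0.16 in ID insulin, where it ran from 0.07 to 0.53.

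The other divergent pairs lie farther apart, with 412 bases between the starts of Col4a3 and Col4a4 and 1414 between those of Col4a5 and Col4a6. Their correlations were r = 0.545 (rho = 0.497, adjusted p = 0.00419 and 0.00873) and r = 0.717 (rho = 0.73, adjusted p = 2e-05 for each), by the same permutation test, and 0.454 and 0.677 without the 2 farthest libraries. Among the other pairs, Col8a1 and Col8a2, on chromosomes 11 and 5, gave r = 0.927 (rho = 0.941). Col1a1 and Col3a1 gave r = 0.901 (rho = 0.871), Col5a2 and Col3a1 r = 0.287, and Col9a1 and Col19a1 r = 0.175. Whether the distance between starts bears on these correlations was not tested. Col4a3 had group means of 4.18 ± 1.02 CPM in IS control and 5.02 ± 1.92 in ID control, then 4.00 ± 0.987 in IS insulin and 3.30 ± 1.04 in ID insulin, with a log2 fold change of -0.58 from ID control to ID insulin (adjusted p = 0.0941). Col4a4 averaged 25.2 ± 2.47, 29.1 ± 4.59, 23.4 ± 2.91 and 25.6 ± 5.18 CPM in that order. Col4a5 averaged 60.4 ± 9.92, 68.3 ± 7.34, 56.3 ± 8.28 and 67.0 ± 8.30, and Col4a6 averaged 6.96 ± 1.19, 9.46 ± 2.22, 6.42 ± 1.31 and 7.60 ± 0.926. ID control had the highest mean in each of Col4a4, Col4a5 and Col4a6, and its libraries overlapped those of every other group.

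**Figure D3:**
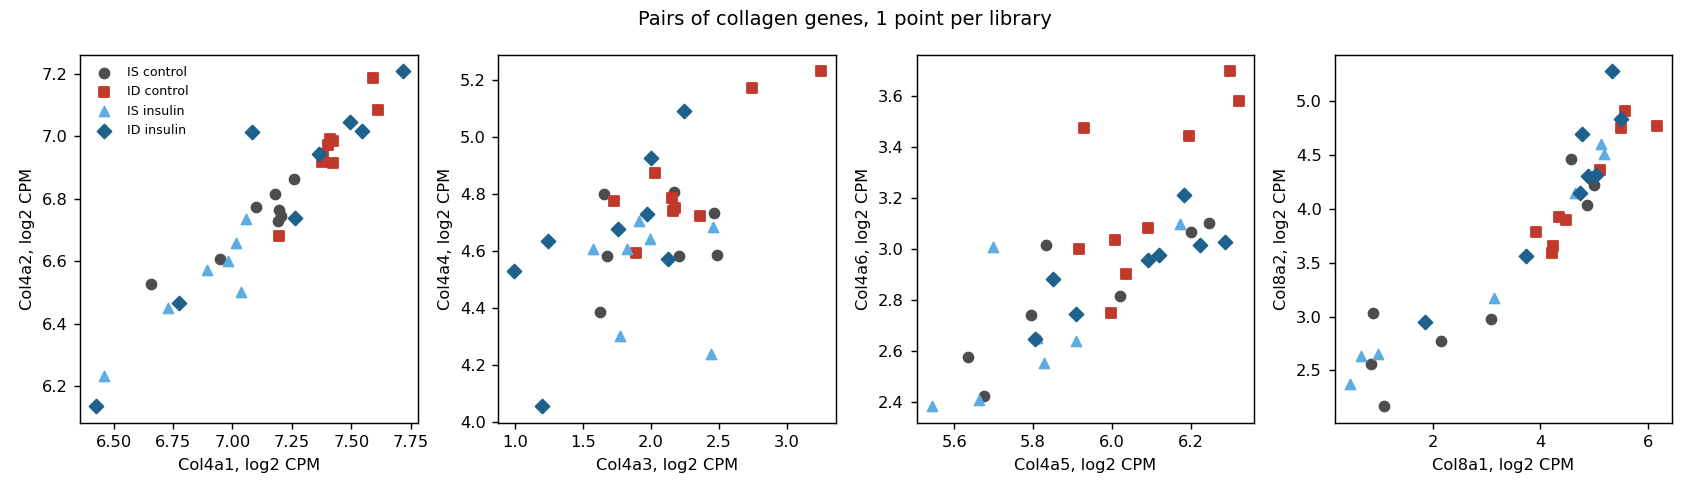
Log2 CPM of 1 gene against that of its partner, 1 point per library, for the 3 divergent type IV pairs and for Col8a1 with Col8a2. Col4a1 and Col4a2 lie close to a line in all groups, Col4a3 and Col4a4 scatter more, and the Col8 pair spans a far wider range, with a low and a high set of IS libraries.

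Among the multiplexins, which sit at the outer face of basement membranes, Col18a1, the source of the fragment endostatin, fell in ID insulin. Its lowest, median and highest CPM were 25.4, 27.7 and 36.2 in IS control, 30.8, 35.0 and 47.7 in ID control, 19.7, 27.5 and 34.3 in IS insulin, and 18.1, 24.4 and 38.1 in ID insulin. Of the 8 ID insulin libraries 6 lay below all of ID control, and replicate 8, at 38.1, lay inside its range. The log2 fold change was -0.49 (SE 0.12, adjusted p = 0.0212). It was -0.44 without ID control replicate 5 (adjusted p = 0.0507), -0.53 against title number 69 (adjusted p = 0.0806) and -0.45 against 70 (adjusted p = 0.142), so the direction held and the call did not in these fits. The Col18a1 call held when each of the other 31 libraries was left out in turn. It held in 9 of 12 other settings and was lost with marker covariates as well. Col15a1, the other multiplexin, was found at 0 to 1.14 CPM, on 0 to 30 counts per library, and was not called. Its means were 0.230 ± 0.173 CPM in IS control, 0.481 ± 0.245 in ID control, 0.434 ± 0.383 in ID insulin and 0.270 ± 0.218 in IS insulin.

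Type VI collagen forms beaded filaments near basement membranes and cells. Col6a1 measured 21.6, 32.2 and 36.5 CPM (lowest, median, highest) in IS control, 29.7, 40.3 and 46.1 in ID control, 22.5, 31.7 and 35.5 in IS insulin, and 23.7, 31.4 and 36.1 in ID insulin. ID control was the highest group, and 3 of 8 ID insulin libraries lay below all of it. The log2 fold change from ID control to ID insulin was -0.36 (SE 0.10, adjusted p = 0.0359), and -0.33 (adjusted p = 0.0792) without ID control replicate 5. The call was lost when any 1 of 8 of the 32 libraries was left out (ID control replicates 2, 5, 8 and 9 and ID insulin replicates 3, 4, 5 and 7, log2 fold changes of -0.41 to -0.32 over all 32) and in 5 of 12 other settings. The change was -0.35 (adjusted p = 0.167) and -0.38 (adjusted p = 0.133) against title numbers 69 and 70. Col6a2, its partner chain, averaged 44.8 ± 9.21 CPM in ID control and 37.1 ± 5.49 in ID insulin, beside 35.2 ± 5.86 in IS control and 33.7 ± 4.51 in IS insulin, with a log2 fold change of -0.27 (SE 0.11, adjusted p = 0.167). The 2 varied together over libraries (r = 0.67, rho = 0.647, permutation within groups, adjusted p = 8e-05 and 0.000256, and r = 0.629 without the 2 farthest). Col6a4, Col6a5 and Col6a6 stayed at group means of 0.345 to 1.04 CPM.

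No fibril-associated, transmembrane, short-chain or other collagen was called. Col12a1, which decorates fibrils, averaged 25.8 ± 4.84 CPM in IS control and 27.3 ± 6.21 in ID control, then 22.2 ± 2.69 in IS insulin and 27.0 ± 1.96 in ID insulin. Col19a1, which some neurons make in mouse brain, averaged 6.84 ± 0.972, 6.51 ± 1.21, 6.72 ± 2.28 and 7.70 ± 1.96 CPM in that order, and was the only collagen without overlap between the 2 title numbers in ID control (7.49 CPM in 70 and 5.74 in 69, adjusted p = 0.41). Of all genes, 3.56% did not overlap in that comparison, and 0 collagens and 0.22% of all genes were called in it, with 4 of 39 collagens (10.3%) and 8.91% of all genes at an unadjusted p under 0.05. Col25a1, the neuronal transmembrane collagen also found in amyloid plaques in human brain, averaged 33.4 ± 2.98 CPM in IS control and 28.3 ± 3.32 in ID control, then 27.1 ± 2.87 in IS insulin and 28.9 ± 7.74 in ID insulin. It was highest in IS control, with 5 of 7 IS insulin libraries below all of that group (log2 fold change -0.30, SE 0.12, adjusted p = 0.201).

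The transmembrane Col13a1 averaged 2.57 ± 0.433 CPM in IS control, 3.12 ± 0.889 in ID control, 2.77 ± 0.779 in ID insulin and 2.55 ± 0.634 in IS insulin. Col23a1 had means of 0.326 to 0.894, and the untested Col17a1 of 0.190 to 0.287. The Col23a1 mean was highest in ID control, where replicate 2 reached 4.72 CPM and the median was 0.269. Col26a1 had the log2 fold change nearest to a call among these in ID control against IS control, 0.60 (SE 0.19, adjusted p = 0.16), at 8.50 ± 1.63 CPM against 5.61 ± 2.08, and averaged 6.50 ± 1.99 in ID insulin and 5.13 ± 1.29 in IS insulin. Col7a1, which anchors basement membranes in skin, averaged 3.69 ± 0.643 CPM in IS control, 4.50 ± 1.45 in ID control, 4.73 ± 1.32 in ID insulin and 3.801 ± 0.517 in IS insulin. Col9a3, a chain of type IX collagen on the fibril surface, averaged 42.6 ± 12.8 CPM in ID control, 51.0 ± 13.2 in ID insulin, 41.2 ± 5.43 in IS control and 43.4 ± 12.3 in IS insulin.

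Col8a1 and Col8a2, the type VIII short-chain network collagens, varied widely between libraries of a group. Col8a1 measured 1.72, 6.35 and 31.98 CPM (lowest, median, highest) in IS control, 15.1, 22.2 and 72.1 in ID control, 1.29, 8.68 and 36.3 in IS insulin, and 3.54, 28.4 and 45.4 in ID insulin. The IS groups held both very low and high libraries, and every ID control library lay above the IS control median. The log2 fold change in ID control against IS control was 1.34 (SE 0.56, adjusted p = 0.324). Col8a2 averaged 11.2 ± 6.67, 19.2 ± 7.11, 12.99 ± 8.31 and 21.2 ± 9.81 CPM in the same order, with a log2 fold change of 0.77 (SE 0.34, adjusted p = 0.358) in that comparison. Col10a1, the third of the class, had group means of 0.0935 to 0.280 CPM.

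Col8a1 followed markers of choroid plexus epithelium, a tissue that lies beside the hippocampus. Those markers (11 of 12 tested, led by Ttr) summed to 19.1 to 3417 CPM in IS control, 1236 to 5748 in ID control, 29.8 to 4449 in IS insulin and 329 to 6214 in ID insulin, with 1 of the 12 at 0 in every library of ID control and likewise in IS insulin. All 11 had a log2 fold change above 0 in ID control against IS control (median 1.196), and none was called. Because the IS groups split into low and high libraries, the relation is given within the 9 ID control libraries. There Col8a1 correlated with the mean of the markers at r = 0.939 and rho = 0.933 (exact permutation test, adjusted p = 0.000351 and 0.00113 over 3 genes, r = 0.963 without the 2 farthest libraries). Col8a2 gave r = 0.958 and rho = 0.933 (exact permutation, adjusted p = 0.000351 and 0.00113, r = 0.947 without 2), and Col9a3, a fibril-associated chain, r = 0.837 and rho = 0.783 (exact permutation, adjusted p = 0.00631 and 0.0172, r = 0.853 without 2). The part of choroid plexus tissue in the group values of these 3 genes was not tested.

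**Figure D4:**
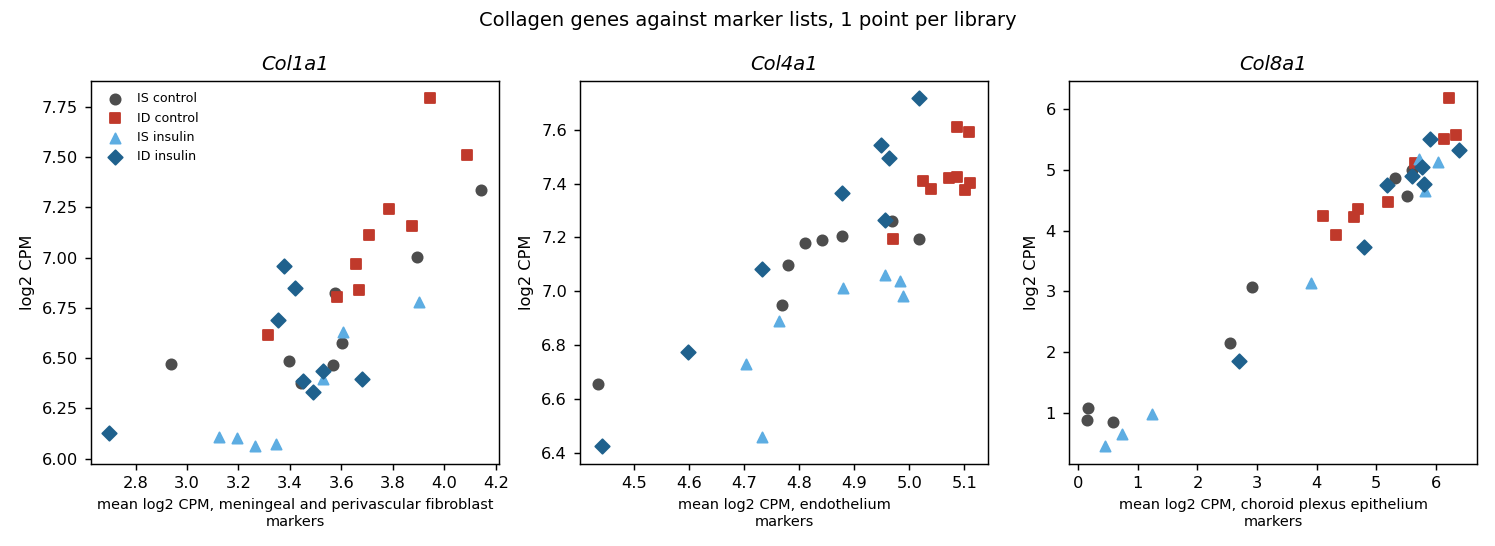
Log2 CPM of Col1a1, Col4a1 and Col8a1 (y axes) against the mean log2 CPM of the fibroblast, endothelium and choroid plexus marker lists (x axes), 1 point per library, coloured by group. Each collagen rises along the list shown, and Col8a1 does so over a range that separates low and high IS libraries.

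Some fibrillar and basement membrane collagens followed markers of fibroblasts or of vessels. Of the 10 fibrillar collagens 3 passed with the fibroblast list (Col1a1, Col3a1 and Col5a1, adjusted p under 0.05 for r and rho). Col27a1 passed with the pericyte list in the negative direction (r = -0.545), and Col5a2 with choroid plexus (r = 0.552, rho = 0.562). Of the 6 type IV genes Col4a1, Col4a2 and Col4a4 passed with endothelium and Col4a6 with fibroblasts, and Col4a3 passed with none. Col4a1 (r = 0.798, rho = 0.784) and Col4a2 (r = 0.694, rho = 0.617) passed with the pericyte list as well. Col4a5 passed with choroid plexus (r = 0.635, rho = 0.652). The IS groups split into low and high libraries on the choroid plexus list, as given above. Over 32 libraries with group means removed, in a family of 280 relations of 40 collagens with 7 lists, Col1a1 correlated with the meningeal and perivascular fibroblast list at r = 0.731 and rho = 0.788 (permutation within groups, adjusted p = 0.00035 and 0.0004, r = 0.759 without the 2 farthest libraries). Col3a1 gave r = 0.734 and rho = 0.718 with that list (adjusted p = 0.00035 and 0.0004, r = 0.677 without 2), and Col6a1 gave r = 0.547 and rho = 0.519 (adjusted p = 0.0342 and 0.0493, r = 0.429 without 2). Col4a1 correlated with the endothelium list at r = 0.893 and rho = 0.823 (adjusted p = 0.00035 and 0.0004, r = 0.83 without 2), and Col18a1 at r = 0.584 and rho = 0.595 (adjusted p = 0.0175 and 0.0166, r = 0.488 without 2). The unadjusted p behind the smallest of these was 1e-05, the least that the permutations can give. Col11a1 passed with no list (highest r 0.317, with choroid plexus, adjusted p = 0.267). The list with the highest r was choroid plexus for 14 of the 40 collagens, fibroblast for 13, endothelium for 6, red blood cell for 3, hippocampal neuron for 3, pericyte and smooth muscle for 1, and thalamus and habenula for 0. This tally takes the highest r whatever its size. It includes collagens that passed with no list, such as Col24a1 under choroid plexus (r = 0.162, permutation within groups, adjusted p = 0.693).

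Part of the markers on these lists fell from ID control to ID insulin, where 1.86% of all genes were called lower, 1.96% higher and 48.8% lay below 0. All 15 tested fibroblast markers lay below 0 in ID insulin against ID control (median log2 fold change -0.28), and 4 fell, among them Aldh1a2 (-0.80, SE 0.20, adjusted p = 0.0198), Slc6a13 (-0.74, SE 0.18, adjusted p = 0.0205) and Foxc1 (-0.50, SE 0.12, adjusted p = 0.0212). Their summed level was 475 to 756 CPM in ID control, 274 to 545 in ID insulin, 295 to 609 in IS control and 303 to 575 in IS insulin. All 15 endothelium markers lay below 0 as well (median -0.24), and Itm2a (-0.28, SE 0.06, adjusted p = 0.00889) and Cdh5 (-0.37, SE 0.11, adjusted p = 0.0443) fell, with sums of 687 to 753 CPM in ID control, 482 to 692 in ID insulin, 472 to 676 in IS control and 588 to 697 in IS insulin. Of 12 pericyte and smooth muscle markers 1, Vtn, fell (-0.48, SE 0.09, adjusted p = 0.00254), with sums of 346 to 728 CPM in ID control, 215 to 535 in ID insulin, 216 to 427 in IS control and 232 to 309 in IS insulin. No marker of these 3 lists was at 0 throughout a group.

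With the means of the fibroblast, endothelium, pericyte and choroid plexus lists as covariates, the log2 fold changes from ID control to ID insulin were -0.13 for Col1a1 (adjusted p = 0.688), -0.08 for Col3a1 (adjusted p = 0.87), -0.13 for Col18a1 (adjusted p = 0.677), -0.06 for Col6a1 (adjusted p = 0.876), 1.05 for Col2a1 (adjusted p = 0.203) and 0.72 for Col11a1 (adjusted p = 0.0482). Of all genes 46 were called in that fit, against 589 without the covariates. In these bulk samples fewer cells of a type and less RNA per cell cannot be told apart.

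In ID control against IS control all 15 endothelium and all 12 pericyte markers lay above 0 (medians 0.23 and 0.26), with Ocln called higher (0.52, SE 0.10, adjusted p = 0.0061), and 12 of 15 fibroblast markers did (median 0.17). Of all genes 52.1% lay above 0 there and 0.291% were called. From ID control to ID insulin, with the shares of all genes given above, 4 of 8 red blood cell markers rose, among them Alas2 (1.15, SE 0.24, adjusted p = 0.00675), with sums of 1364 to 3206 CPM in ID control and 1261 to 5505 in ID insulin. Of 10 thalamus and habenula markers Patj and Prkcd were called higher and Lhx9 lower in that comparison. Sums were 169 to 249 CPM in ID control and 191 to 691 in ID insulin, where the median was 212. ID insulin replicate 5 had a mean log2 CPM of 5.36 for these markers, and the next library, replicate 1, 4.25. Prkcd averaged 45.4 ± 52.2 CPM in ID insulin and 18.9 ± 6.53 in ID control. Of 11 hippocampal neuron markers 1, Wfs1, was called lower (-0.38, SE 0.10, adjusted p = 0.0257), with sums of 953 to 1209 and 727 to 1047 CPM. Their part in the collagen values was not tested.

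Of the 19 tested genes for collagen modification and secretion, 0 were called between ID control and IS control, where 0.291% of all genes were, so that the count does not set them apart. They include the iron-dependent hydroxylases P4ha1 (51.3 ± 4.56 CPM in ID control, 47.9 ± 3.90 in IS control), P4ha2 (18.7 ± 2.29 and 15.8 ± 1.75, log2 fold change 0.24, adjusted p = 0.146) and Plod2 (9.73 ± 2.15 and 7.79 ± 1.43, log2 fold change 0.31, adjusted p = 0.41), and the collagen chaperone Serpinh1 (105.5 ± 10.8 and 89.7 ± 12.9, log2 fold change 0.23, adjusted p = 0.191). In that comparison 15 of the 19 genes (78.9%) had a log2 fold change above 0, where 52.1% of all genes did. At an unadjusted p under 0.05 in the quasi-likelihood test stood 5 of them (26.3%), where 11.9% of all genes did. The transferrin receptor Tfrc, which cells raise when iron is short, was higher in ID control in the same comparison. It averaged 168.6 ± 19.7 CPM against 117 ± 6.54 (log2 fold change 0.53, adjusted p = 0.000116). Tfrc was higher again in ID insulin than in ID control (202.5 ± 17.4 CPM, log2 fold change 0.26, adjusted p = 0.0243).

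Between ID control and ID insulin, where 1.86% of all genes were called lower and 1.96% higher, 1 of the 19, Ppib, a prolyl isomerase of the collagen-folding complex, fell by 0.12 on the log2 scale (adjusted p = 0.0416). Of 14 tested genes for processing and crosslinking 2 fell, Pcolce, an enhancer of procollagen cleavage (-0.50, SE 0.11, adjusted p = 0.0111), and the transglutaminase Tgm2 (-0.40, SE 0.12, adjusted p = 0.0437). Of 15 basement membrane partners 1 fell, the laminin chain Lama1 (-0.47, SE 0.12, adjusted p = 0.028). Of 16 fibril partners 2 fell, Fbln1 (-0.59, SE 0.11, adjusted p = 0.00445) and the proteoglycan Bgn (-0.43, SE 0.09, adjusted p = 0.00737). Of 14 degradation genes 1 rose, Adamts4 (0.33, SE 0.08, adjusted p = 0.0205), and of 10 collagen receptors 0 were called.

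Between the insulin groups, where 2.45% of all genes were called, 1 of 14 processing genes, 1 of 15 basement membrane partners and 3 of 16 fibril partners were called. The crosslinking enzyme Loxl2 (0.59, adjusted p = 0.0375), the basement membrane linker Nid1 (0.36, adjusted p = 0.0219) and the fibril partners Fbn2 (0.78, adjusted p = 0.0131), Fbn1 (0.31, adjusted p = 0.0468) and Tnc (0.41, adjusted p = 0.0469) were higher in ID insulin. Between ID insulin and IS control, where 3.35% of all genes were called, P3h3, of the prolyl hydroxylase family (0.55, adjusted p = 0.0309), the procollagen protease Bmp1 (0.19, adjusted p = 0.0438), Pxdn, which crosslinks type IV collagen (0.39, adjusted p = 0.0412), and the protease inhibitor Reck (0.41, adjusted p = 0.0491) were higher in ID insulin, and Fbln1 lower (-0.42, adjusted p = 0.0395). Between IS insulin and IS control (0.123% of all genes called) Fbn2 fell (-0.79, adjusted p = 0.0458), and between ID control and IS control (0.291%) Prelp, a proteoglycan that binds collagen, was higher (0.57, adjusted p = 0.0487).

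Of all tested genes, those most like the mean log2 CPM of Col1a1 and Col3a1 over the 32 libraries were Fstl1 (Spearman rho 0.842), Col4a6 (0.841) and Nid2 (0.829). Those most like the mean of Col4a1 and Col4a2 were Flna (0.872), Msn (0.857) and Cald1 (0.835). These ranks describe the libraries, which share their group differences and their tissue makeup.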

How the data were processed

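The authors deposited raw read counts per gene for 32 libraries in 1 table. Per the submitters' processing notes the tools were Trimmomatic (0.40), FastQC, HISAT2 (2.1.0), featureCounts and edgeR, and the builds Rnor_6.0 and mm10, with roles not given. Strand use and the handling of reads with several places are not given in the sources used here, so overlapping, antisense and near-identical genes are uncertain. The table had 0 columns of other samples.

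Counts were analysed in R (4.3.3) with edgeR (4.0.16): TMM normalization, filterByExpr by group, and the two-sided quasi-likelihood F-test with 1 coefficient per group over 32 libraries (28 residual degrees of freedom). Benjamini-Hochberg adjustment ran over 15439 genes, and calls were made at an adjusted p under 0.05. A separate fit on the 9 ID control libraries set title number 70 against 69. Relations used log2 CPM (prior count 2). The steps were tested on simulated data. Each library's depth limits the precision of low genes, and intervals from counting were not printed.

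The collagens and the lists of partner and marker genes were chosen with earlier results of these data known. Values in every group are given for called collagens, the 2 of highest mean CPM per class and the names kept whatever their result (Col1a1, Col3a1, Col6a1, Col6a2, Col11a1, Col15a1, Col18a1, Col19a1, Col25a1 and the 6 type IV genes), and up to 3 called genes per list and comparison. Alternatives were DESeq2 (1.42.0), limma voom (limma 3.58.1), DESeq2 size factors, no filter, 1 CPM in 7 libraries, the compared groups alone, a block, title number 69 or 70 alone, ID insulin replicates 3 and 5 removed (a pair picked from earlier results of these data), marker covariates, each library left out and, added after seeing the data, edgeR's earlier quasi-likelihood method. Promoter letters were searched in the 250 bases before the start.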

Additional observations from a re-analysis of the deposited data

Results flagged for a closer look

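A library far from the others of its group was found in 4 of the 92 collagen and group values tested by Dixon's gap rule, and chance flags about 1 in 20 groups. The rule was applied to the collagens called, highest in their class or kept by name, and the others were not screened. Col2a1 in ID insulin replicate 8 was 3.55 CPM, where the other 7 libraries lay between 0.773 and 1.97. Col3a1 in ID control replicate 5 was 246 CPM, with the others between 86.2 and 165. Col19a1 in ID insulin replicate 2 was 12.1 CPM, with the others between 5.38 and 7.96. Col7a1 in ID control replicate 1 was 7.53 CPM, with the others between 3.06 and 5.29. Collagens that were not screened also held far libraries. In ID control replicate 2, Col14a1 was 10.06 CPM (group median 4.14) and Col23a1 was 4.72 (group median 0.269).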

How the results depend on the processing

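The number of collagens called depended on the setting, and no collagen value changed sign while called. In ID control against IS control (0 called), DESeq2 called 1, limma voom 1 and the compared groups alone 1. In ID insulin against ID control (6 called), the count was 2 with ID control of title number 69 alone, 1 with 70 alone, 3 without ID insulin replicates 3 and 5, and 1 with marker covariates, that 1 being Col11a1. In ID insulin against IS insulin (1 called), it was 2 with DESeq2, 0 with the compared groups alone, 0 with the replicate block, 3 without ID insulin replicates 3 and 5, and 0 with covariates. In ID insulin against IS control (1 called), it was 3 with DESeq2, 2 with limma voom, 2 with the replicate block, 2 without ID insulin replicates 3 and 5, 0 with covariates and 2 with edgeR's earlier quasi-likelihood method. Each of these counts above 1 included Col24a1, and that of DESeq2 also Col27a1. In the interaction (0 called), DESeq2 and limma voom each called 1. With single libraries left out the counts ranged from 0 to 1, 1 to 6, 0 to 0, 1 to 3, 1 to 3 and 0 to 1 in the order ID control against IS control, ID insulin against ID control, IS insulin against IS control, ID insulin against IS insulin, ID insulin against IS control and the interaction, and from 0 to 0 for the title numbers. The low of 1 was without ID control replicate 5. The cause was not tested.

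With the second title number as a replicate block, the counts were 0, 4, 0, 0, 2 and 0 in the same order. In the 4, Col11a1 and Col18a1 were joined by Col24a1 and Col4a3. The numbers do not pair the libraries: over 40 pairs with the same number the correlation of deviations was -0.195 to 0.25 (median 0.00336), and 2 of 32 libraries correlated best with their own number. The log2 fold changes of the collagens called, highest in their class or kept by name were compared between the main fit and every other fit. Fits with a single library left out make up most of these values. A call was lost in 52 values and gained in 20. The rest stayed on their side of the threshold. Of these, 92 uncalled values moved by at least 1 SE of the main fit, and 5741 kept their call or moved by less. Collagens near 1 CPM, such as Col2a1 and Col15a1, rest on few counts.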
